A study of Mus musculus with 4 samples.

Results

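Malat1, Neat1, Gm42418 and AY036118 are 4 noncoding RNA genes of the 32285 genes counted in leukocytes of EO771 mammary tumors. They were chosen by their measured levels, in UMIs per 10000, for how these differed between cell types, at matched numbers of unique molecular identifiers (UMIs, which tag single captured RNA molecules) and with the mitochondrial share of a cell. Their levels across cell types, depths and mitochondrial shares are therefore given as a description with no test, while the genotype, which did not enter that choice, was tested. EO771 is a mammary carcinoma line of C57BL/6 mice, and the tumors grew in the mammary fat pads of female mice. The 2 Csf1rfl/fl tumors served as controls, and the 2 Lyve1CreCsf1rfl/fl tumors came from mice in which Cre driven by the Lyve1 promoter removes floxed Csf1r. Both genotypes carry the floxed Csf1r alleles, and lymphatic endothelium also uses the Lyve1 promoter. Cells were labelled with hashtag antibodies, sorted for viable CD45+ cells and captured with a 10x 3′ kit in 2 Chromium runs, each of which pooled 1 tumor of either genotype.

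Malat1 and Neat1 are long nuclear RNAs that stay in or beside nuclear bodies. Malat1 lies in nuclear speckles, which store splicing factors, and Neat1 is the scaffold of paraspeckles, which hold back RNA-binding proteins. Malat1 and the long form of Neat1 are cut from their primary transcripts just after an A-rich tract encoded in the genome, which folds into a triple helix with upstream T-rich stretches and protects the 3′ end in place of an added poly(A) tail. Gm42418 and AY036118 are annotated as long intergenic noncoding RNAs on opposite strands of a sequence related to ribosomal RNA, the RNA of the ribosome itself, which exists in many copies in the genome.

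The A-rich tracts are shown because Malat1 and Neat1 both hold one, with the tract in capitals. Both printed stretches also share the letters aggttttgctttt upstream of the tract, left in lower case. In mm10, per GENCODE vM21, Malat1-201 is a single exon of 6983 bases at chr19:5795690-5802672 on the minus strand, and Neat1-201 is a single exon of 20771 bases at chr19:5824708-5845478 on the same strand. The genes are 22035 bases apart. The shorter Neat1-202 has 2 exons and 3004 bases. The stretches printed are chr19:5795937-5796044 and chr19:5824708-5824763, both on the minus strand.
Malat1: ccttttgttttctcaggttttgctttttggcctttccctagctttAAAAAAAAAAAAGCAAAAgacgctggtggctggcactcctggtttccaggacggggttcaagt
Neat1: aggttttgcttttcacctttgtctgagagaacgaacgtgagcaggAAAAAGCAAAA
The letters AAAAAGCAAAA, searched on the transcript strand, occurred once in either RNA. They were the last 11 bases of Neat1-201, and in Malat1-201 they lay in a tract of 18 bases that ended 292 bases before the annotated 3′ end. Of 141767 transcripts, 152 (0.107%) held these letters in their last 400 bases. Malat1 had the longest run of A, with 12, against 7 in Neat1, 6 in Gm42418 and 4 in AY036118.

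The pair on chromosome 17 is shown because its members are 1 sequence read from both strands. Gm42418 is a single exon of 1831 bases at chr17:39846958-39848788 on the plus strand, and AY036118 is a single exon of 923 bases at chr17:39847113-39848035 on the minus strand. All of AY036118 is the reverse complement of bases 156 to 1078 of Gm42418, which is 50.4% of the latter. The stretch chr17:39847976-39848035 is printed from either gene, with no capitals since no letter of it differs in importance.
AY036118: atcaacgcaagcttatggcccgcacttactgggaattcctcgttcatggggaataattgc
Gm42418: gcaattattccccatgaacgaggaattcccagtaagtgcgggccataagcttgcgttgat
Both lie inside the ribosomal RNA gene CT010467.1, annotated at chr17:39846353-39848827 on the minus strand, and RefSeq places the pseudogene Rn18s-rs5 at chr17:39846354-39848202. Counts for the pair are uncertain, because reads from other copies of ribosomal RNA can align there. Gm26917, a further noncoding gene, begins at chr17:39843013 and ends at chr17:39846341 on the plus strand.

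The authors deposited 53361 barcodes and kept 28429 of them (53.3%), which were used here. The tumors gave 4771 to 8699 cells, with a median of 3721 to 4657 UMIs per cell, and the runs shared 200 barcode sequences, of which 60 were among kept cells. Lineage markers placed 23416 cells (82.4%) in 14 types. Another 2813 cells met the gates of more than 1 lineage, and 2132 cells, with a median of 1714 UMIs, met none. Levels are UMIs of the gene per 10000 UMIs of all genes, summed over the cells of a type in a tumor. Values of the 4 tumors are listed in the order Csf1rfl/fl of run 1, Csf1rfl/fl of run 2, Lyve1CreCsf1rfl/fl of run 1 and Lyve1CreCsf1rfl/fl of run 2. The 4 RNAs together took 3.75%, 6.94%, 3.93% and 5.60% of all UMIs in this order, so the tumors of run 2 were above those of run 1 in either genotype.

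Malat1 was highest in neutrophils, at 320, 487, 362 and 471 per 10000 UMIs, with a mean of 410 ± 82 (SD, n = 4 tumors). Plasmacytoid dendritic cells, which produce type I interferon, followed at 354 ± 46, and mature Ccr7+ dendritic cells, which migrate to lymph nodes, at 331 ± 52. Neutrophils held the highest level in 3 of 4 tumors, and in the Csf1rfl/fl tumor of run 1 the mature dendritic cells were higher, at 327. Arg1 macrophages stood at 256 ± 43 and C1q macrophages, named for their complement genes, at 231 ± 33. CD8 T cells had 151, 154, 139 and 171, and Cd209a dendritic cells had 139, 150, 115 and 157. These types did not overlap with neutrophils in any tumor, and the ratio of neutrophils to Cd209a dendritic cells was 2.93 ± 0.43. Cells with stromal or tumor markers were far lower, at 34.4 ± 12.4, but these 119 cells had a median of 46199 UMIs. Of the 13 pairs of neighbours in this order, 7 were apart in the sense that the upper type was higher in all 4 tumors and the mean log2 ratio exceeded its SD. Plasmacytoid and mature dendritic cells did not differ beyond their spread, nor did monocytes, NK cells, cDC1 and regulatory T cells in sequence.

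Neat1 took far fewer UMIs than Malat1 and was more uneven. Neutrophils had 8.27, 20.7, 11.6 and 23.4 per 10000 UMIs, with a mean of 16.0 ± 7.2 (SD, n = 4), and were the highest type in all 4 tumors. Arg1 macrophages had 3.44, 5.66, 4.16 and 5.96, monocytes 3.38 ± 0.77, plasmacytoid dendritic cells 3.30 ± 0.64 and C1q macrophages 2.30 ± 0.57. T cells, NK cells and the other dendritic cells lay between 1.11 and 1.69 in their means, and 9 of the 13 pairs of neighbours did not differ beyond their spread. Neutrophils exceeded CD8 T cells, at 1.16, 1.33, 0.996 and 1.42, by 7.11-fold, 15.6-fold, 11.6-fold and 16.5-fold. Both neutrophil tumors of run 2 were above both of run 1, and no other gated type reached the lowest neutrophil value. With every cell thinned to 1000 UMIs, which left out 130 shallower neutrophils, Neat1 was detected in 65.7% ± 13.1 of neutrophils and in 12.4% ± 2.2 of CD8 T cells. Without thinning the shares were 84.9% ± 5.7 and 39.7% ± 7.5, at median depths of 2115 and 4948 UMIs. S100a9, an alarmin of neutrophils that also shows free neutrophil RNA in other cells, stood at 801 ± 43 per 10000 in neutrophils and 3.96 ± 1.84 in CD8 T cells. S100a9 is also a marker of the neutrophil gate, and a cell that met this gate and the T cell gate entered no type. The fall of S100a9 from neutrophils to CD8 T cells, steeper than that of Neat1, is thus set in part by the gates. The part of free RNA in the Neat1 level of other types was not tested.

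Gm42418 followed another order, with the mononuclear phagocytes on top. C1q macrophages had 254, 595, 310 and 519 per 10000 UMIs, with a mean of 420 ± 163 (SD, n = 4), and were the highest of the types with at least 50 cells per tumor in all 4 tumors. Arg1 macrophages stood at 368 ± 151 and monocytes at 352 ± 147, which did not differ beyond their spread. The next type, CD4 T cells, was at 256 ± 114, and monocytes exceeded it in all 4 tumors by 0.47 ± 0.09 on the log2 scale. All other leukocyte types had means between 200.3 and 256, with no pair of neighbours apart. The runs did not overlap, since the lowest C1q value of run 2 was 519 and the highest of run 1 was 310, and within a tumor the ratio of C1q macrophages to plasmacytoid dendritic cells was 2.09 ± 0.21.

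AY036118 was highest in the same type, with C1q macrophages at 10.8, 21.1, 17.5 and 16.2 per 10000 UMIs, a mean of 16.4 ± 4.3. Monocytes had 12.6 ± 3.0, Arg1 macrophages 12.1 ± 3.7 and mature dendritic cells 10.8 ± 3.8. Plasmacytoid dendritic cells had 5.70 ± 0.80, and C1q macrophages exceeded them by 2.85 ± 0.46-fold. For 100 UMIs of Gm42418 over all cells there were 3.94, 3.21, 4.46 and 2.74 UMIs of AY036118. This ratio was lower in run 2 than in run 1 of the same genotype in each of the 11 types with at least 50 cells per tumor. In neutrophils it was 3.44, 2.87, 3.93 and 2.54, and in C1q macrophages 4.24, 3.54, 5.64 and 3.13.

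**Figure D1:**
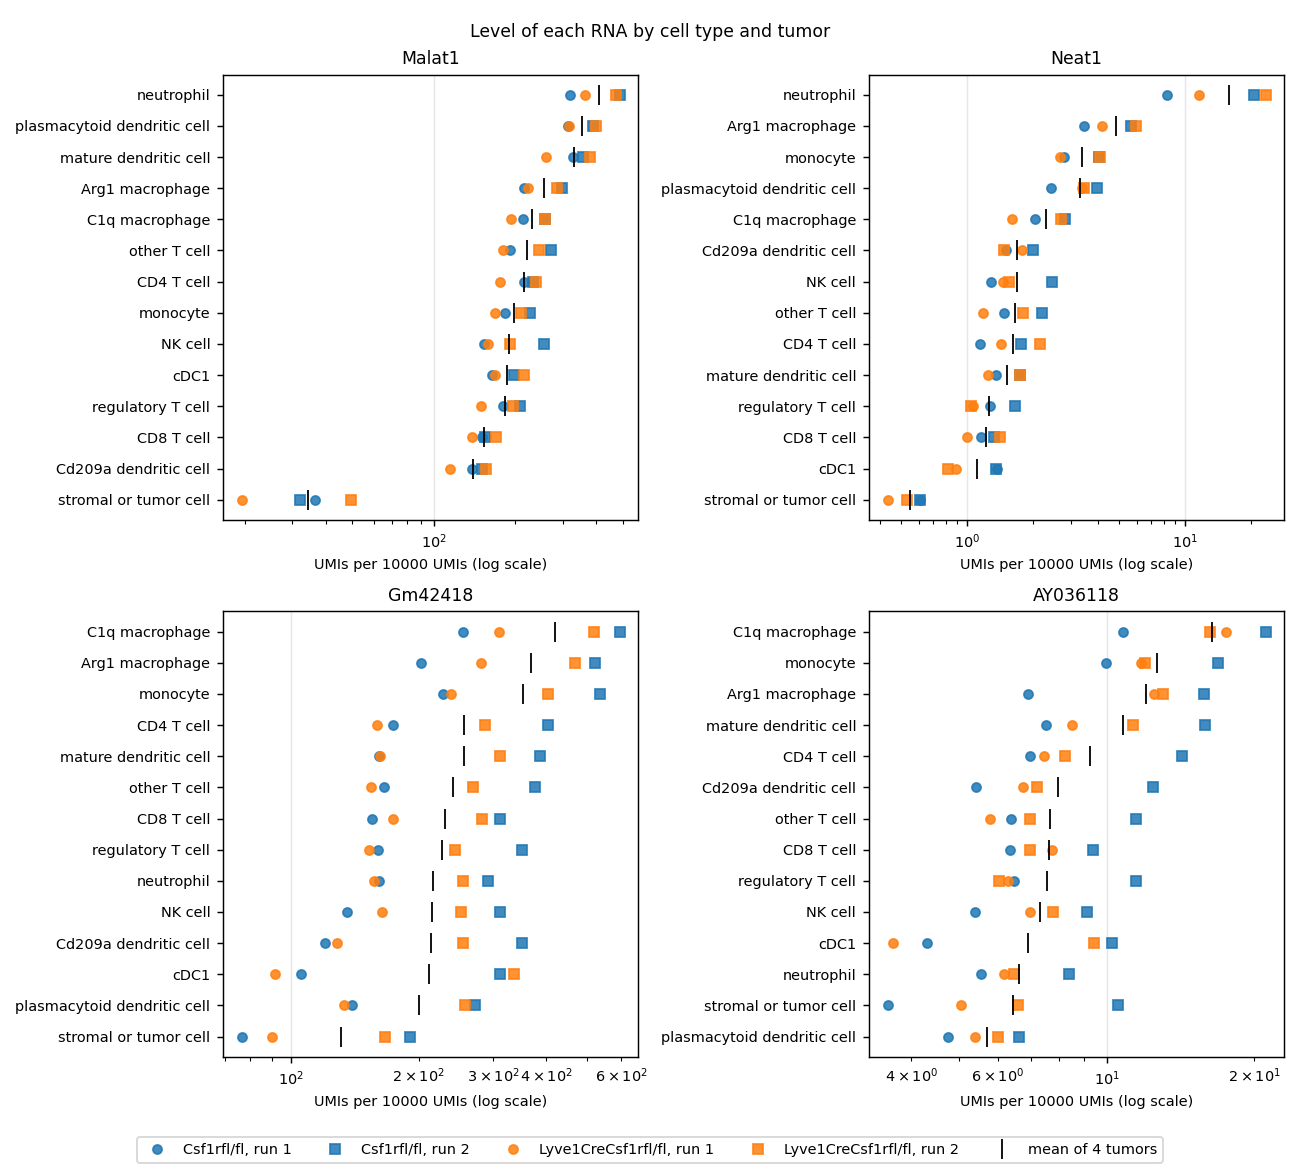
Level of each RNA in UMIs per 10000 UMIs (x axis, log scale) by cell type (y axis), with 1 point for each of the 4 tumors and a bar at their mean. Neutrophils are on top for Malat1 and Neat1, with means of 410 and 16.0, and C1q macrophages for Gm42418 and AY036118, with means of 420 and 16.4.

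The number of UMIs in a cell went with the share that Malat1 took in most types, and with that of the other RNAs in some. For Malat1, the level in cells of 2000 to 3000 UMIs exceeded that in cells of 5000 to 8000 UMIs in all 4 tumors and in each of the 10 types with at least 5 cells per tumor in both bands, by 1.29 ± 0.08-fold in neutrophils and up to 2.72 ± 1.01-fold in Arg1 macrophages. In monocytes the ratios were 1.88, 1.92, 1.85 and 1.83. Total UMIs rose 2.40-fold between these bands in monocytes, while Malat1 UMIs per cell rose 1.28-fold. In neutrophils the rises were 2.58-fold and 2.01-fold. Among these 10 types the ratio was lowest in neutrophils. Plasmacytoid dendritic cells, with too few cells of 2000 to 3000 UMIs, went the other way in 3 of 4 tumors, from 332 ± 4 in cells of 3000 to 5000 UMIs to 392 ± 78 in cells of 5000 to 8000. Cd209a dendritic cells had 133 ± 30 and 139 ± 13 in these bands, with 2 tumors rising and 2 falling.

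Gm42418 changed with depth in the mononuclear phagocytes and hardly in lymphocytes. In C1q macrophages its level was 940 ± 268 per 10000 in cells of 2000 to 3000 UMIs and 409 ± 195 in cells of 5000 to 8000, a ratio of 2.47 ± 0.50. Its UMIs per cell were 240 ± 70 and 257 ± 126 in these bands, and 350 ± 155 in cells of 8000 to 15000 UMIs. Monocytes had ratios of 2.08, 2.10, 2.13 and 2.44, and Arg1 macrophages 3.18 ± 1.10 from 7 to 14 cells per tumor in the lower band. T cells had ratios near 1, of 1.04 ± 0.22 in CD4 T cells, 1.01 ± 0.15 in regulatory T cells and 1.16 ± 0.13 in CD8 T cells. Neutrophils differed by run: the ratios of 1.12 and 1.01 in run 1 and 0.422 and 0.376 in run 2 mean that the deeper neutrophils of run 2 had the larger share. For AY036118 in C1q macrophages the ratios were 1.16 and 1.44 in run 1 and 0.818 and 0.786 in run 2. Their mean was 1.05 ± 0.31, while the ratio of Gm42418 in this type exceeded 1 in all 4 tumors.

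Neat1 had a higher level in the shallow cells in all 4 tumors in 7 of the 10 types, with ratios of 2.39 ± 0.76 in Arg1 macrophages, 2.04 ± 0.90 in C1q macrophages, 1.44 ± 0.23 in neutrophils and 1.34 ± 0.25 in monocytes. In the other T cells the ratio was 1.11 ± 0.58 and exceeded 1 in 2 of 4 tumors. These are T cells outside the CD8, regulatory and CD4 gates, with none of these markers or with Cd8 beside Cd4 or Foxp3.

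At matched depth the highest type for Malat1 depended on the band, while it stayed neutrophils for Neat1 and C1q macrophages for Gm42418 and AY036118 among the types with at least 50 cells per tumor in the bands compared here, of 2000 to 3000 and 4000 to 6000 UMIs. In cells of 2000 to 3000 UMIs, among the 9 types with at least 50 cells per tumor and at least 5 of them in this band, mature dendritic cells were highest in Malat1, at 489, 557, 430 and 494, and exceeded CD8 T cells by 1.84 ± 0.21-fold. Neutrophils stood at 426 ± 50 and C1q macrophages at 423 ± 62. Neat1 stayed highest in neutrophils, at 9.40, 18.2, 12.6 and 20.8, which was 9.35 ± 2.52 times regulatory T cells. Gm42418 was 5.01 ± 0.91 times and AY036118 3.43 ± 1.14 times as high in C1q macrophages as in neutrophils. The C1q macrophages in this band numbered 61, 30, 24 and 9 cells. Arg1 macrophages, with under 50 cells in 1 tumor and 7 to 14 per tumor in the band, had higher means still, at 699 ± 125 for Malat1 and 1147 ± 565 for Gm42418. For Gm42418 they were below C1q macrophages in the Csf1rfl/fl tumor of run 1, at 541 against 652. For Gm42418 the ratio of C1q macrophages to neutrophils fell to 1.56 ± 0.30 in cells of 4000 to 6000 UMIs. In that deeper band neutrophils had the highest Malat1 mean, at 397 ± 74, beside 381 ± 43 in plasmacytoid and 343 ± 81 in mature dendritic cells, which lay within 1 SD.

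**Figure D2:**
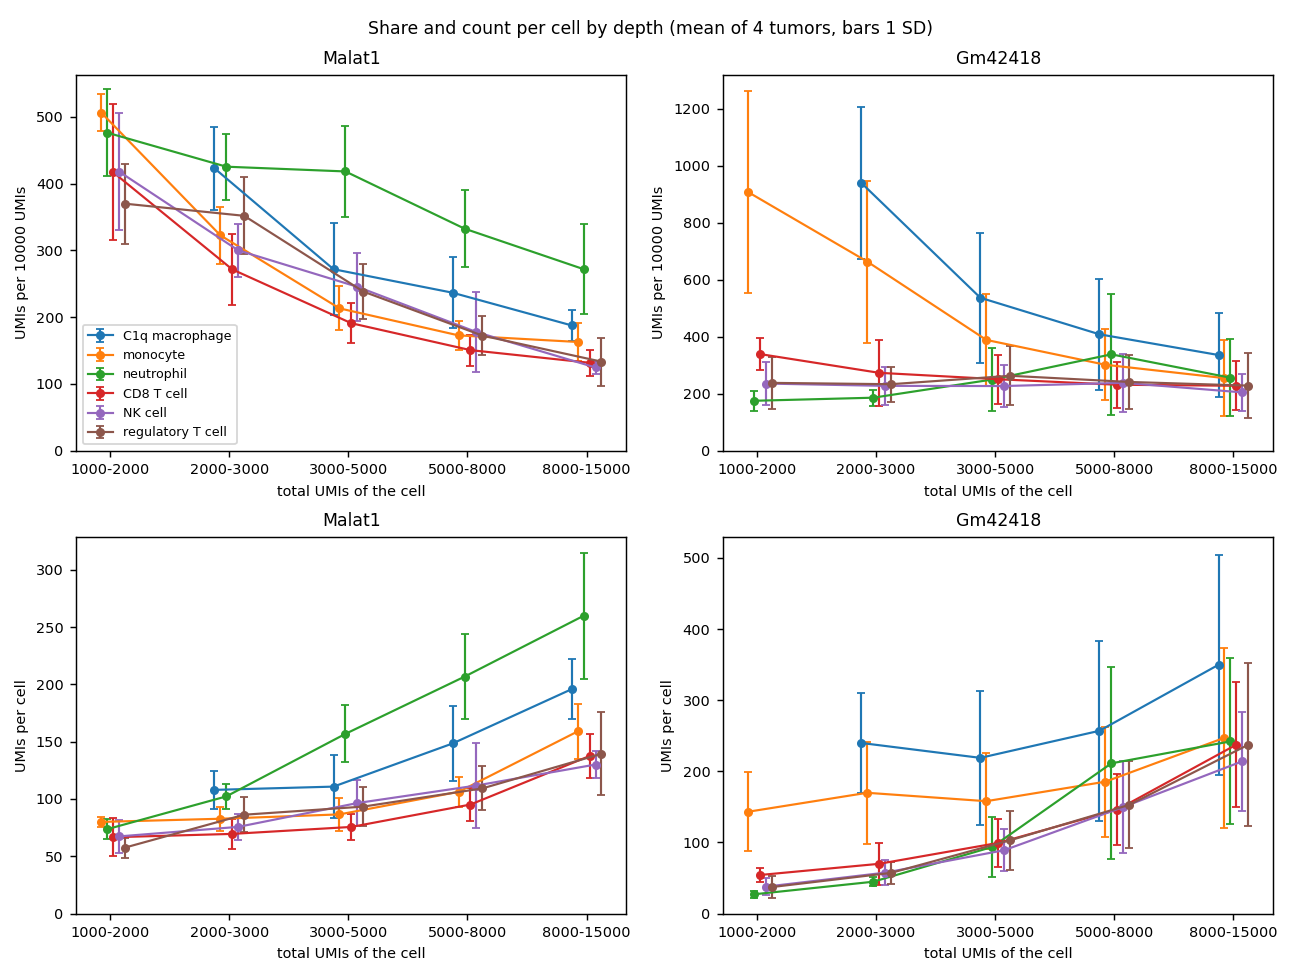
Malat1 and Gm42418 in 6 cell types by total UMIs of the cell (x axis, in bands), as the level in UMIs per 10000 UMIs (y axis, upper panels) and as UMIs per cell (y axis, lower panels), with points at the mean of the 4 tumors and bars of 1 SD. The level of Malat1 declines with depth in each type shown, while that of Gm42418 falls from 940 to 409 in C1q macrophages between cells of 2000 to 3000 and 5000 to 8000 UMIs and goes from 273 to 232 in CD8 T cells.

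The share of UMIs from mitochondrial genes, which is high in damaged cells, also went with Malat1, Neat1 and Gm42418 within a type, while the mean ratio for AY036118 was below its SD. Cells with 3% to 5% mitochondrial UMIs were compared with cells of 1% to 2% in 9 types. The mean log2 ratio over types was 0.59 ± 0.08 for Malat1, 0.88 ± 0.16 for Neat1, 0.68 ± 0.21 for Gm42418 and 0.089 ± 0.25 for AY036118 (SD, n = 4 tumors). In monocytes Neat1 had means of 1.76, 3.04, 3.75, 5.85 and 8.21 per 10000 in bands of 1 percentage point from 0% to 5%. Their Gm42418 level ran 336, 307, 355, 486 and 705, and was highest above 3%. Median UMIs fell from 4768 to 3102.5 over these bands. Within cells of 2000 to 5000 UMIs the ratio was 1.40 ± 0.13 for Neat1 in monocytes and 1.10 ± 0.19 for Gm42418 in neutrophils on the log2 scale, with all 4 tumors above 0, whereas Malat1 in neutrophils was -0.07 ± 0.28. Over the 9 types the mean for Malat1 was 0.24 ± 0.17 and for Neat1 0.69 ± 0.22 at this depth. The latter leaves out mature dendritic cells of the Lyve1CreCsf1rfl/fl tumor of run 2, which had no Neat1 UMI in the higher band. By type, the means at this depth ran from -0.12 in other T cells to 0.68 in mature dendritic cells for Malat1. For Gm42418 they ran from 0.30 in other T cells to 1.10 in neutrophils.

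**Figure D3:**
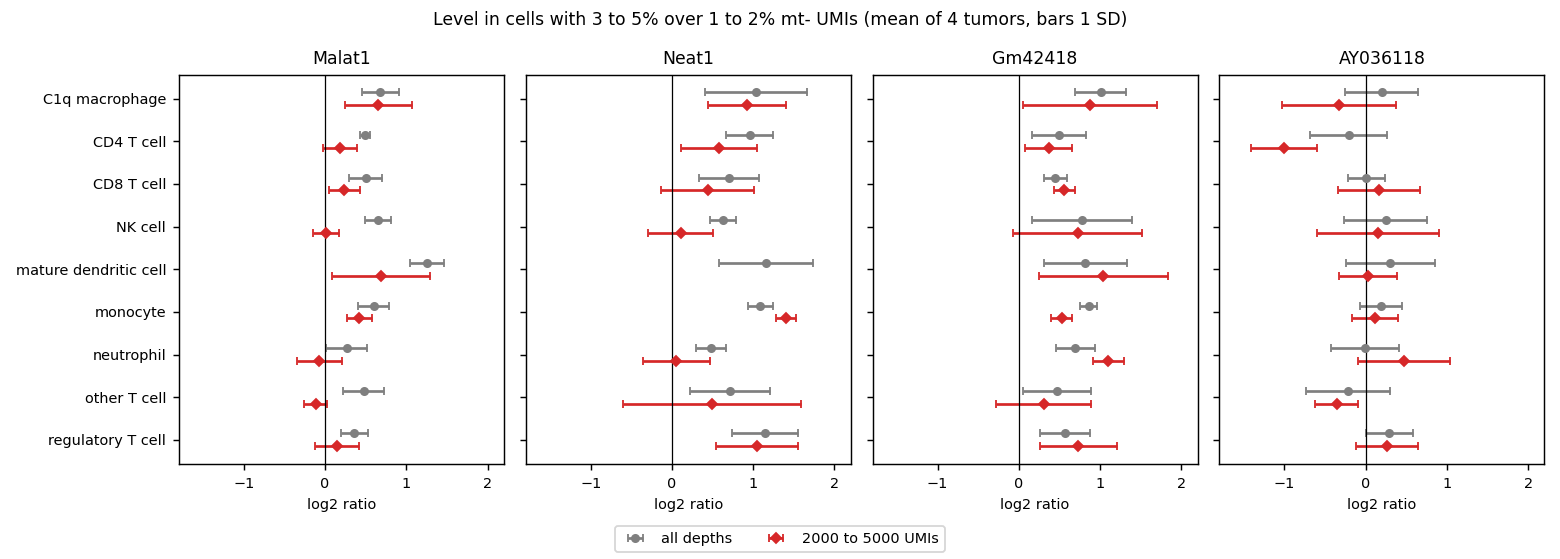
Log2 ratio of the level in cells with 3% to 5% mitochondrial UMIs to that in cells with 1% to 2% (x axis) in 9 cell types (y axis), with points at the mean of the 4 tumors and bars of 1 SD, for cells of all depths in gray and of 2000 to 5000 UMIs in red. In monocytes Neat1 lies at 1.40 at the matched depth, while Malat1 in neutrophils lies at -0.07.

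In 1187 of the 28429 cells more than 10% of UMIs came from Gm42418, 405 in run 1 and 782 in run 2. These 4.18% of the cells held 19.6% of all Gm42418 UMIs. They had a median of 2735 UMIs and 2.36% mitochondrial UMIs, against 4145 and 1.44% in all cells. Monocytes contributed 325 of them, C1q macrophages 126, and the cells of no type 362. In C1q macrophages they made up 5.01%, 15.4%, 8.10% and 12.5% of the cells in the 4 tumors, and in neutrophils 1.04%, 1.78%, 0.847% and 0.939%. The median cell had 177 per 10000, the 95th percentile was 883 and the highest 7977. Malat1 exceeded 10% in 718 cells, of which 309 met no gate and 132 were neutrophils, while Neat1 reached at most 374 per 10000 in a cell.

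Within single types, cells of 2000 to 5000 UMIs were compared to see which of the RNAs varied together from cell to cell. Gm42418 and AY036118 correlated at r = 0.63, 0.62, 0.75 and 0.51 in C1q macrophages and at 0.51, 0.53, 0.52 and 0.37 in neutrophils. Malat1 and Neat1 correlated at 0.38, 0.41, 0.39 and 0.28 in neutrophils and at 0.27, 0.26, 0.27 and 0.31 in monocytes. Malat1 and Gm42418 had values of 0.24, 0.26, 0.28 and 0.33 in monocytes and 0.049, -0.17, 0.088 and -0.10 in CD8 T cells. The cells of a tumor share a library and cover a range of depths, and these values are descriptions.

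The genes with the most similar levels over 44 profiles, 11 types in 4 tumors, were sought among 1403 genes with a mean of at least 1 UMI per 10000. The profiles share libraries and depth, so the correlations are given without a test. For Malat1 they were Irf1, an interferon-induced transcription factor, at r = 0.89, with Btg1, Ddx6 and Klf6 among the next. For Neat1 they were Ccnl1, a cyclin linked to splicing, at 0.93, and Grina, Zfp36, Nfkbiz and Ier5, of which the last is an immediate early gene. Gm42418 was most like Dync1i2, a chain of the motor protein dynein, at 0.90, followed by AY036118 at 0.84, Lars2, a mitochondrial leucyl-tRNA synthetase, at 0.81, Abi1 and Actr2. AY036118 had Dync1i2 at 0.86, Gm42418, Actr2, Cxcl9 and Rab5c. Malat1 and Neat1 correlated at 0.69, but Malat1 and Gm42418 at 0.26. Centred within tumors, the value of Lars2 with Gm42418 fell to 0.55 and that of AY036118 with Gm42418 rose to 0.94. Lars2 ran 4.39, 8.37, 5.32 and 8.08 per 10000 in C1q macrophages, with both tumors of run 2 above both of run 1, as for Gm42418.

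To ask whether the deletion of Csf1r in Lyve1-lineage cells went with a change of these RNAs, UMIs were summed per tumor in each of the 11 types and tested with edgeR's quasi-likelihood test over all genes, with Benjamini-Hochberg adjustment within a type. None of the 44 tests of the 4 RNAs passed 0.05, and 1 had an unadjusted p under 0.05. DESeq2 called none of them either. The background was 0% of genes called in 9 types, 0.0265% in CD4 T cells and 0.0146% in Cd209a dendritic cells, or 3 calls in 94653 tests of a gene in a type, while 92 to 460 genes per type had an unadjusted p under 0.05. DESeq2 called 0 genes in 9 of the types, 1 in other T cells and 17 in regulatory T cells. Bulk sums cannot tell fewer cells of a kind within a type from less RNA per cell.

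The log2 fold changes of Lyve1CreCsf1rfl/fl over Csf1rfl/fl lay between -0.52 and 0.34, and 34 of 44 were below 0. The value with an unadjusted p under 0.05 was Neat1 in regulatory T cells, at 1.27, 1.67, 1.06 and 1.04 per 10000, where both Lyve1CreCsf1rfl/fl tumors were below both controls. The log2 fold change of Neat1 there was -0.48 ± 0.21 (SE) with an adjusted p of 0.990 by edgeR. Standard errors of the 44 values ran from 0.20 to 0.52.

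With the run as a replicate block, 2 of the 44 tests passed. Gm42418 in monocytes stood at 228, 535, 239 and 405 per 10000, and its log2 fold change in the blocked fit was -0.19 ± 0.043 (SE), with an adjusted p of 0.00446 by edgeR. The runs differed in direction, at 0.067 in run 1 and -0.40 in run 2 on the log2 scale of the levels. Malat1 in regulatory T cells stood at 180, 208, 149 and 197, with -0.18 ± 0.034 and an adjusted p of 0.0214 in this fit, and was lower in the Lyve1CreCsf1rfl/fl tumor of either run, at -0.27 and -0.083 on that scale. Standard errors of the edgeR fits were the log2 fold change over the root of the test's F value. The spread in that value is estimated partly from other genes. These errors and the adjusted p thus do not measure how the difference between genotypes varied between the 2 runs. The blocked fit called 0.678% of genes in monocytes and 1.64% in regulatory T cells. Gm42418 and AY036118 were lower in the Lyve1CreCsf1rfl/fl tumor of run 2 in 11 of 11 types, but in run 1 only in 5 and 2 of them. Csf1r itself, whose 3′ tags need not read the deleted part, was at 1.90, 2.41, 1.40 and 1.49 in C1q macrophages, and Lyve1 was below 0.01 in every type and tumor.

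Gm42418 was higher in run 2 than in run 1 in 11 of 11 types in both genotypes, by 1.82-fold to 2.91-fold in Csf1rfl/fl and by 1.54-fold to 1.98-fold in Lyve1CreCsf1rfl/fl. Each run is 1 library of 2 tumors, so the runs are compared as a description with no test, and the capture, the sequencing and the tumors themselves cannot be told apart. With the TMM scaling of edgeR, which was looked at after the data were seen, the log2 ratio of run 2 to run 1 was 0.64 in CD8 T cells to 1.09 in Cd209a dendritic cells, and was above 0 in 11 of 11 types. In monocytes it was 0.82 and in neutrophils 0.71. Gm42418 was not alone in this direction. Btg1, Dync1i2 and Lars2, named above for their likeness to Malat1 or Gm42418, were also higher in run 2 in each of these types in both genotypes. They were picked over the same profiles, which hold the difference between the runs. Their shared direction is thus in part set by that choice and does not show how general it is. Btg1 stood at 21.3, 45.2, 26.5 and 43.9 in neutrophils. Zfp36 did not follow in CD8 T cells, at 1.54, 0.996, 1.13 and 1.72. The share of all genes with this pattern was not counted.

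Malat1, Neat1 and AY036118 differed less evenly between the runs than Gm42418. Per 10000 UMIs they were higher in run 2 in both genotypes in 11 of 11 types for Malat1, 9 for Neat1 and 8 for AY036118. With TMM scaling each was above 0 in 10 of 11 types, and Malat1 turned to -0.04 in CD8 T cells. Neat1 was at -0.09 in Cd209a dendritic cells and at 1.10 in neutrophils, its widest gap. AY036118 ran up to 0.54, in mature dendritic cells, and Malat1 up to 0.42, in neutrophils. Mitochondrial UMIs made up 1.49% and 1.56% of the tumors of run 1 and 1.72% and 1.77% of those of run 2, and their part in the difference was not tested.

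**Figure D4:**
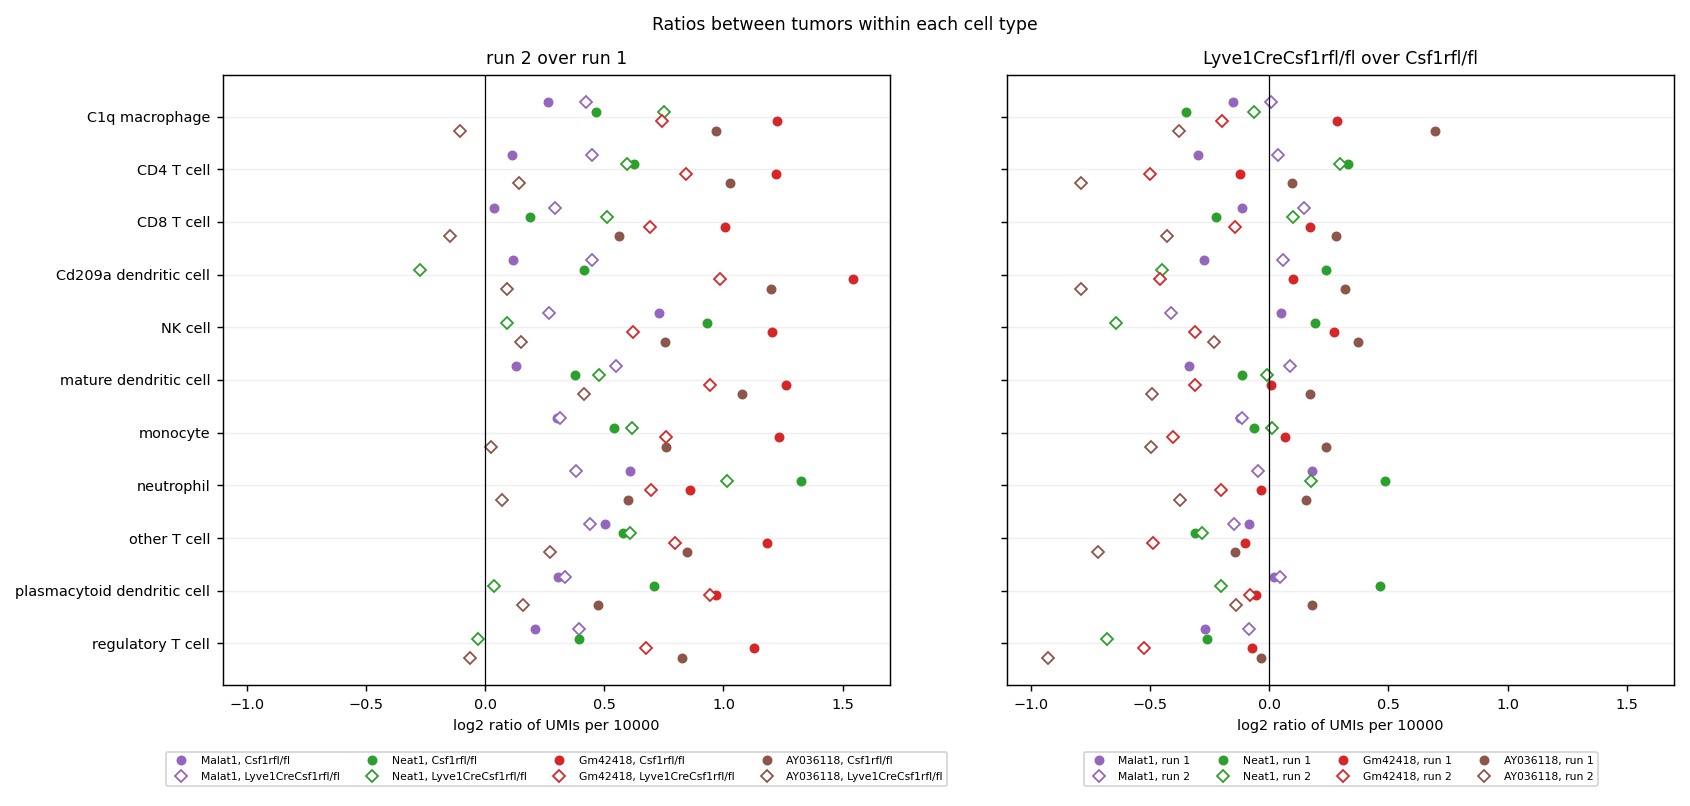
Log2 ratios of the levels of each RNA in the 11 cell types, with the ratio of run 2 to run 1 in either genotype in 1 panel and that of Lyve1CreCsf1rfl/fl to Csf1rfl/fl in either run in the other. All values of Gm42418 lie above 0 for the run, from 1.54-fold to 2.91-fold, while for the genotype its values lie on both sides of 0 in run 1 and below 0 in run 2.

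Lists of genes related to these RNAs by nuclear body or process, and a list of other noncoding RNAs, were followed in the same fits. Paraspeckle proteins had 13 members, among them the RNA-binding proteins Hnrnpk, Sfpq and Hnrnpm, at means of 3.04, 2.07 and 2.03 per 10000 over the 4 tumors. Nuclear speckle proteins, with the splicing factors Srsf3 and Srsf5 and the large speckle proteins Son and Srrm2, had levels of 3.77, 2.36, 3.66 and 3.11. Other noncoding RNAs were led by Xist, which silences an X chromosome in female cells, at 6.06, Gas5 at 5.41, Gm26917 at 2.84 and Zfas1 at 1.49. Ribosomal RNA processing was led by the nucleolar proteins Npm1 at 9.26, Ncl at 6.50, Nop58 at 1.19 and Fbl at 0.830. The genotype test called none of the 138 to 143 tests of a gene in a type in each list by edgeR or by DESeq2, and the list medians ran from -0.10 to 0.35 on the log2 scale, beside medians over all genes of -0.019 to 0.0073. With the run as a replicate block Npm1, a histone chaperone of the nucleolus, was called higher in regulatory T cells, with a log2 fold change of 0.38 ± 0.056 (SE) and an adjusted p of 0.00595 by edgeR, where 0.135% of all genes were called higher.

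Gm26917, the neighbour of Gm42418, did not share its order of types. Its mean was highest in CD8 T cells, at 3.52, 5.53, 5.10 and 5.58 per 10000, but regulatory T cells were above them in the Csf1rfl/fl tumor of run 1, at 3.75. It stood at 2.56 ± 0.46 in C1q macrophages. Xist was highest in plasmacytoid dendritic cells in all 4 tumors, at 14.6 ± 1.6. By its mean alone, Malat1 was second there and Gm42418 lowest of the leukocyte types. In Gm42418, cDC1 exceeded plasmacytoid dendritic cells in 2 of 4 tumors. These are levels by UMI count, not per length. Where a gene is placed above another by level, it took more UMIs, which need not mean more RNA.

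Among the barcodes that the authors removed, those with 5% to 20% mitochondrial UMIs carried more of all 4 RNAs than kept cells in both runs. From 10% to 20% mitochondrial UMIs, Gm42418 took 882 and 945 per 10000 UMIs in runs 1 and 2, against 174 and 370 in kept cells, and Malat1 took 547 and 488 against 198 and 255. These barcodes had a median of 1271 and 1495 UMIs, against 4193 and 4081 in kept cells, and kept types of 1000 to 2000 UMIs had mean Malat1 levels of 370 to 855 and Gm42418 levels of 175 to 908. Counted without mitochondrial UMIs, Gm42418 was at 1017 and 1088 in this band, against 177 and 376. Above 50% all 4 levels were below those of kept cells, with Malat1 at 25.6 and 89.1 in 32 and 59 barcodes. Counted without mitochondrial UMIs, Gm42418 was at 385 and 539 in these barcodes, above kept cells, and Malat1 at 122 and 369, against 201 and 260. Ribosomal protein genes took 7.70% and 10.3% of UMIs at 10% to 20%, against 22.7% and 20.4% in kept cells. Removed barcodes include doublets and cells of no clear hashtag, and their types were not gated.

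**Figure D5:**
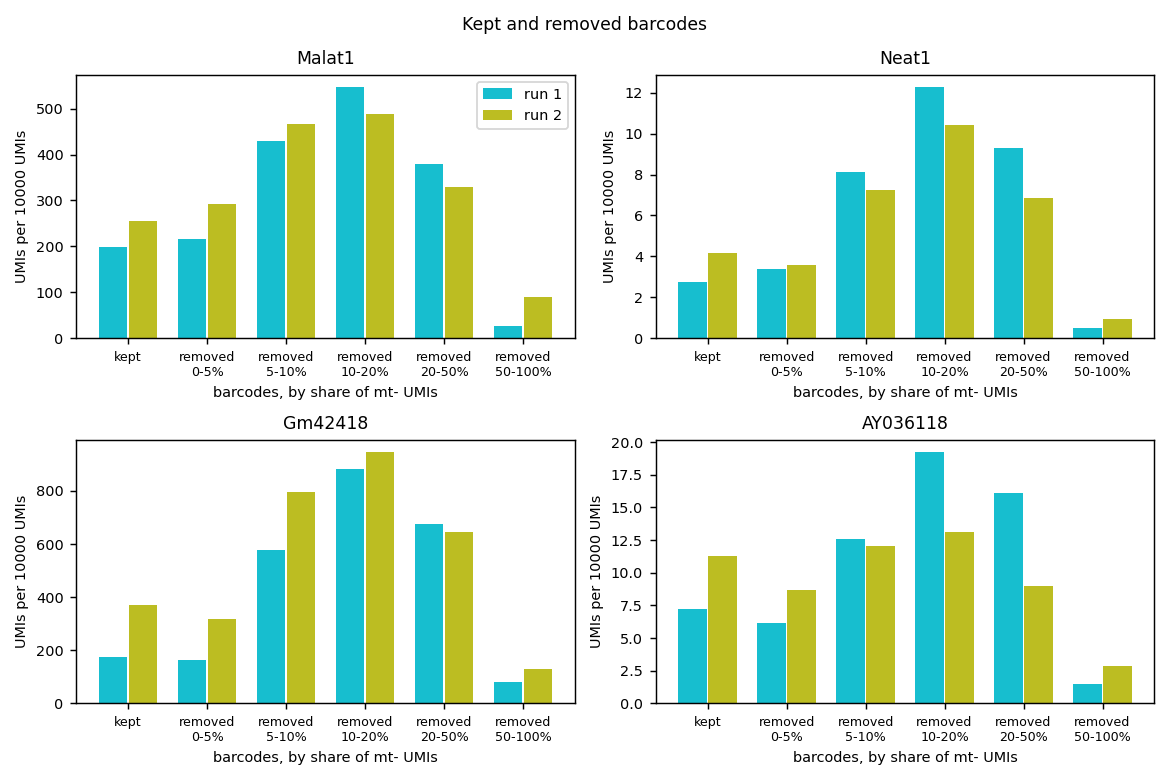
Level of each RNA in UMIs per 10000 UMIs (y axis, from 0) in kept cells and in removed barcodes by their mitochondrial share (x axis), with a bar for each of the 2 runs. The levels peak between 10% and 20%, where Gm42418 reaches 882 and 945, and fall above 50%, where mitochondrial UMIs are most of the denominator and Gm42418 without them is at 385 and 539, against 177 and 376 in kept cells.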

How the data were processed

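UMIs per gene and barcode were counted by the authors with Cell Ranger 6.0.1 on mm10 and deposited as raw counts, beside the counts of both hashtag antibodies. The authors also deposited SCTransform values, which are corrected counts treated here as scores and used solely to learn which cells were kept (singlets under 5% mitochondrial UMIs, outside clusters specific to 1 tumor). The samples in the labels are pools of both genotypes, so the tumor of a cell was taken as the hashtag with the higher centred log count, by the authors' table of hashtags. The members and the gene lists were chosen with earlier results of these data known.

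Cells were gated by lineage markers per cell, and a cell that met 2 lineages entered no type, with some exceptions. Among the C1q, Arg1 and Cd209a gates the one with the larger share of its markers was taken, and a tie entered no type. A met monocyte gate did not keep a cell out of another type. The Cd209a gate did not keep a cell out of the other dendritic types. Cells that met the T cell gate were not counted as NK cells. Doublets were not called again, since the authors had kept singlets. A type was fitted with at least 50 cells in every tumor and given a level with at least 10. UMIs were summed per tumor and type and tested with edgeR 4.0.16 (filterByExpr, TMM, quasi-likelihood, Benjamini-Hochberg, threshold 0.05) in R 4.3.3, with n = 2 tumors per genotype. An exact permutation test of 2 against 2 cannot go below p = 0.333. Alternatives were the run as a replicate block, DESeq2 1.42.0, library totals without TMM, no filter, a stricter gate, clear hashtags (at least 3 times the other), cells of 2000 to 5000 UMIs and leaving out each tumor. The runs pair the tumors because either run was 1 pool of both genotypes, and the deviations of its tumors from their group means correlated over genes at 0.153 to 0.736 in the 11 types. On simulated counts of the 11 fits, 97.5% to 100% of 200 abundant genes changed by 2 on the log2 scale were recovered, with 7 to 32 false calls. The simulation held no difference between the runs, and its changes were larger than those of the 4 RNAs. It does not show how often changes of their size would be called.

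Named genes were the members, the 5 genes most like each by Pearson correlation of log2(UMIs per 10000 + 0.1), the 4 most abundant genes of each list and list genes past the threshold. S100a9, Csf1r and Lyve1 were named as checks. Sequences came from GENCODE vM21 and RefSeq tables. Total UMIs per tumor were 27686362 to 56715743. Tables were handled in Python 3.11.15 (pandas 2.3.3, numpy 2.4.6, scipy 1.17.1) and plotted with matplotlib 3.10.9. Values of some single genes that the naming rules picked are not reported here.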

Additional observations from a re-analysis of the deposited data

Results flagged for a closer look

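The barcodes that the authors removed with 5% to 10% mitochondrial UMIs, which entered no comparison between types or genotypes, held each RNA above its level in kept cells of the same run. Malat1 was at 429 and 467 per 10000 UMIs in runs 1 and 2, against 198 and 255 in kept cells. Neat1 was at 8.14 and 7.27, against 2.73 and 4.14. Gm42418 was at 578 and 796, against 174 and 370. AY036118 was at 12.6 and 12.1, against 7.23 and 11.3. These barcodes had a median of 1915 and 2225.5 UMIs, against 4193 and 4081 in kept cells.

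For Malat1 and Neat1 the sign of the difference between genotypes was the same in both runs in some types and opposite to that of other types, and these differences between types were not tested. The runs had opposite signs in 7 of 11 types for Malat1 and in 5 of 11 for Neat1. Malat1 was lower in the Lyve1CreCsf1rfl/fl tumor of either run in 3 types, monocytes, other T cells and regulatory T cells, and higher in 1, plasmacytoid dendritic cells. Neat1 was lower in 4 types, C1q macrophages, mature dendritic cells, other T cells and regulatory T cells, and higher in 2, CD4 T cells and neutrophils. None of these passed the test of the genotype without the block.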

How the results depend on the processing

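With the run as a replicate block, the paired fit called 2 of the 44 tests of the members and 1 gene of the lists, against 0 and 0 without it, and changed no other call of these. A fit without 1 tumor leaves 1 tumor in a genotype, so its calls are not given. The other alternatives called no member and no list gene. Leaving out 1 tumor turned the sign of 8 to 25 of the 44 log2 fold changes, most without the Csf1rfl/fl tumor of run 2. Such a fit has no block and leaves the runs unbalanced between genotypes. These turns thus cannot tell a single tumor from the difference between the runs. With all tumors and the run as a block, 1 of the 44 signs turned. Where leaving out a tumor left 1 of that genotype, this tumor was taken to vary like the other group. As a mean over cells, C1q macrophages exceeded plasmacytoid dendritic cells 2.69-fold in Gm42418 and 3.32-fold in AY036118, and with a denominator without the members, mitochondrial and ribosomal protein genes neutrophils exceeded Cd209a dendritic cells 2.38-fold in Malat1. Of the 44 levels, 44 stayed within 1 SD with clear hashtags and 44 with the stricter gate. As a mean over cells 35 did so, and with that denominator 9. Leaving out 1 of 4 tumors cannot move a mean by 1 SD, so those levels are not counted. At matched depth, Gm42418 in C1q macrophages over neutrophils was 1.56-fold at 4000 to 6000 UMIs, 2.57-fold with cells thinned to 1000 UMIs and 3.95-fold with the band set on UMIs without the members, and Neat1 in neutrophils over regulatory T cells was 13.5-fold with thinned cells. Within 2000 to 5000 UMIs the mitochondrial log2 ratio fell to 0.24 for Malat1 and 0.69 for Neat1. For Gm42418 the means by type ran from 0.30 to 1.10 at this depth, beside 0.45 to 1.01 at all depths. The causes were not tested. With 2 tumors per genotype, standard errors of the 44 values were 0.20 to 0.52, and Neat1 levels in types with few cells rest on few UMIs.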

Other observations

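The 2132 cells that met no gate were shallow, with a median of 1714 UMIs. Gm42418 stood at 290, 653, 348 and 601 per 10000 UMIs in the 4 tumors, above every gated type in each tumor over all depths, and among the 8 gated types of 1000 to 2000 UMIs the mean was 908 in monocytes and 175 to 452 in the other 7. Neat1 in the cells of no gate was at 4.42, 9.04, 4.72 and 9.27, which was second to neutrophils over all depths. Their Malat1 was at 271, 412, 276 and 367, where gated types of 1000 to 2000 UMIs had means of 370 or more, and AY036118 at 7.57, 13.7, 10.1 and 10.2. In 12.7%, 22.1%, 13.6% and 19.7% of these cells more than 10% of UMIs came from Gm42418, and the highest cell had 7977 per 10000. The 2813 cells that met the gates of more than 1 lineage, with a median of 8790 UMIs, had Gm42418 at 146, 387, 157 and 257 and Malat1 at 186, 267, 194 and 266.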
